A study of Mus musculus with 6 samples.

Results

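The genes described here encode the aminoacyl-tRNA synthetases of the mouse. They were taken by symbol from the count tables, which hold 37 of them among 24411 gene symbols, and all 37 were among the 15846 genes tested. Of these, 21 encode cytosolic enzymes, 15 encode mitochondrial enzymes, and Lars2, the mitochondrial leucyl enzyme, was handled apart because 1 library held far more of its reads than the others. RNA was sequenced in bulk at postnatal day 18 in 3 samples with a knockout of the large Atoh7 enhancer (enhancer KO) and in 3 wild-type samples (WT). The labels call the replicates independent. They name neither the strain, the sex, the litter, nor whether tissue was pooled, so p-values measure the spread between these samples. The tissue field reads retina, whereas the protocol names cerebellum.

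Aminoacyl-tRNA synthetases join each amino acid to its tRNA, so every protein made in a cell depends on them. The mitochondrion translates its own few mRNAs with tRNAs of its own, and most of its synthetases are separate enzymes encoded in the nucleus. Several cytosolic synthetases are held in a multisynthetase complex. Many cytosolic synthetase genes are known targets of ATF4, the transcription factor of the amino acid response, and inherited defects of the mitochondrial enzymes in people often affect brain white matter, cerebellum, inner ear or ovary.

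The promoters are shown for a sequence feature that the choice of genes did not use and that could be counted in both sets. Promoter windows of 250 bases before to 50 bases after the start were matched for 28 of the genes, 14 cytosolic and 14 mitochondrial (RefSeq, GRCm38.p6). The element TGATGNAA, or TTNCATCA on the other strand, is the form read by ATF4 paired with a C/EBP factor. It lay in 5 of the 14 cytosolic windows, in 0 of the 14 mitochondrial windows and in 4.51% of the windows of all 27025 genes. A match of each of these genes is shown with 11 bases on each side, on the strand of the gene, with the element in capitals.
Yars, chr4:129189895-129189924 (+): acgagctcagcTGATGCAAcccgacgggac
Gars, chr6:55037960-55037989 (+): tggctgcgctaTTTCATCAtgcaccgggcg
Aars, chr8:111033840-111033869 (+): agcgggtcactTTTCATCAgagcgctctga
Iars, chr13:49682126-49682155 (+): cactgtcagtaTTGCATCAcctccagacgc
Tars, chr15:11399655-11399684 (-): caggagtcccgTTGCATCAgctggttagct
The 5 genes did not move together: Yars was called higher in enhancer KO, Iars was called lower, and Gars, Aars and Tars were not called. In all, 7 patterns were searched on both strands, and TGATGNAA was chosen for display after their counts were seen. Its narrower form TGATGCAA, which it contains, lay in 4 cytosolic and 0 mitochondrial windows and in 1.03% of all. In Aars the narrower form was a second match, 112 bases upstream of the start, which is not shown. The matches shown for Yars, Iars and Aars lie after the start, and those for Gars and Tars before it. The palindrome of the factor NRF1 with 1 free base lay in 3 cytosolic and 2 mitochondrial windows against 5.19% of all, and in its exact form in 0 and 0 against 1.07%. CCAAT lay in 7 and 6 windows against 41.1%, CCGGAA in 5 and 7 against 16.7%, and TATAAA in 1 and 2 against 15.7%. A match of letters is a description and not a measured binding site.

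Depth and library quality differed between the groups. Reads in genes numbered 36849747 to 40858310 in the enhancer KO libraries and 22812075 to 33076111 in the WT libraries. Reads outside annotated exons made up 17.4% ± 0.734 of all reads in enhancer KO and 32.4% ± 1.56 in WT (SD, n = 3 each), with an exact two-sided permutation p = 0.1, the smallest that 3 against 3 can give. WT replicate 2 stood apart, with 20.4% of its reads unmapped and 12.9% of its gene reads in Rn45s, the ribosomal RNA precursor gene, against 1.51% to 3.02% in the other libraries. WT replicate 1 alone had many reads of Xist and none of the Y-linked Ddx3y, so sex and genotype were not balanced. Atoh7 itself had 28, 33 and 29 reads in the enhancer KO libraries and 63, 42 and 72 in the WT libraries, a log2 fold change of -1.41 ± 0.20 (SE) with an edgeR quasi-likelihood, Benjamini-Hochberg adjusted p = 0.000352. The summed level of 8 photoreceptor markers was 1.46 to 1.70 CPM, read counts relative to the scaled library size, in enhancer KO and 1.42 to 2.28 CPM in WT, whereas 6 Purkinje cell markers summed to 6337 to 6560 CPM and 4576 to 5415 CPM. Photoreceptor markers were thus near 0 in every library, against the retina label. Of 6 retinal ganglion markers, several of which other neurons share, the sum was 694 to 714 CPM in enhancer KO and 653 to 740 CPM in WT. Most of this sum was the neurofilament gene Nefl, which averaged 662 CPM in enhancer KO and 654 CPM in WT.

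Per length of transcript, the cytosolic enzymes were expressed at higher levels than the mitochondrial ones in both groups. The median level over the 21 cytosolic genes was 21.2 CPM per kb in enhancer KO (range 7.31 to 53.7) and 22.9 CPM per kb in WT (range 7.71 to 47.5). Over the 15 mitochondrial genes it was 4.42 CPM per kb in enhancer KO (range 1.41 to 10.6) and 5.23 CPM per kb in WT (range 1.34 to 10.2). The length used is that of the longest annotated coding transcript, so a gene with a long but little-used transcript reads low, as may Mars2, whose annotated transcript is 11294 bases long.

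Nars, the asparaginyl enzyme, and Gars, the glycyl enzyme that serves both compartments, were the most abundant per length. Nars had 53.7 ± 2.36 CPM per kb in enhancer KO and 47.4 ± 1.5 in WT, and Gars had 47.2 ± 0.78 and 47.5 ± 0.42 (SD, n = 3 each). In WT these neighbours did not differ beyond their spread, while in enhancer KO Nars lay above Gars. Next came the seryl enzyme Sars, with 33.7 ± 0.85 CPM per kb in enhancer KO and 33.1 ± 0.81 in WT, and the alanyl enzyme Aars, with 31.9 ± 0.15 and 33.5 ± 1.09, whose order differed between the groups. At the low end of the cytosolic set, Tars had 7.31 ± 0.29 CPM per kb in enhancer KO and 7.71 ± 0.45 in WT.

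Among the mitochondrial enzymes, Iars2, the isoleucyl enzyme, was the most abundant per length. It had 10.6 ± 0.22 CPM per kb in enhancer KO and 10.2 ± 0.42 in WT. Rars2, the arginyl enzyme, followed with 7.30 ± 0.11 in enhancer KO and 9.94 ± 0.85 in WT. In WT the libraries of these neighbours overlapped, and in enhancer KO Rars2 lay well below Iars2 and close to Aars2, the alanyl enzyme, with 6.82 ± 0.59 against 8.17 ± 0.19 CPM per kb in WT. Mars2, the methionyl enzyme, was lowest with 1.41 ± 0.13 CPM per kb in enhancer KO and 1.34 ± 0.10 in WT.

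**Figure D1:**
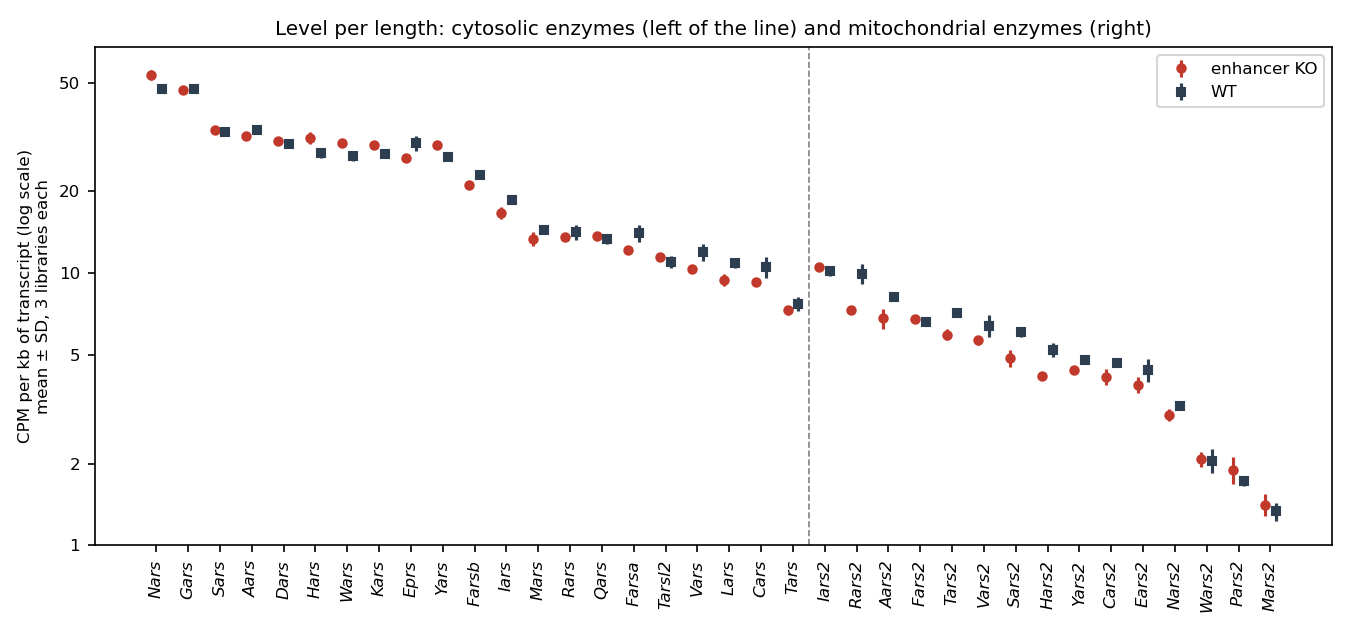
Level of each synthetase transcript in CPM per kb of transcript on a log axis, as mean and SD over 3 enhancer KO libraries (circles) and 3 WT libraries (squares), with cytosolic enzymes left and mitochondrial enzymes right of the dashed line. The cytosolic genes range over 7.31 to 53.7 CPM per kb in enhancer KO and the mitochondrial genes over 1.41 to 10.6 CPM per kb.

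Between genotypes, 4 of the 21 cytosolic genes were higher in enhancer KO, 6 were lower and 11 were not called (edgeR's quasi-likelihood test, Benjamini-Hochberg adjusted p under 0.05 over all genes tested). Of the 15 mitochondrial genes, 0 were higher, 5 were lower and 10 were not called. Over all genes tested, 31.3% were called, 13.4% higher and 17.9% lower, with a median log2 fold change of 0.00. The cytosolic share lower was 6 of 21 and the mitochondrial share lower 5 of 15, and the median log2 fold change was -0.06 over the cytosolic set and -0.17 over the mitochondrial set. At an unadjusted p under 0.05, the number of mitochondrial genes higher was also 0, and DESeq2 called 0. All changes were small: called cytosolic genes were 10.4% to 14.0% higher or fell by 10.6% to 13.4%, and called mitochondrial genes fell by 16.5% to 26.3%.

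The levels of all 3 enhancer KO libraries lay above all 3 WT libraries for 5 cytosolic and 0 mitochondrial genes, against 20.5% of all genes tested. They lay below for 9 cytosolic and 7 mitochondrial genes, against 24.3% of all genes. The counts of genes called lower depended on whether libraries were scaled beyond their size. With RLE scaling, 4 cytosolic genes were higher, 5 cytosolic genes were lower and 5 mitochondrial genes were lower, close to the counts with TMM scaling. With library size alone in place of TMM scaling, 4 cytosolic genes stayed past the threshold as higher, 0 were lower, and 1 mitochondrial gene was lower, while over all genes 2168 (13.7%) were higher and 1689 (10.7%) lower, against 2120 and 2843 with TMM. With Rn45s and Lars2 removed before TMM scaling, 4 cytosolic genes were higher, 6 cytosolic genes were lower and 5 mitochondrial genes were lower, beside 13.5% of all genes higher and 17.7% lower. Without WT replicate 1, the only library with high Xist, the counts were 3, 3 and 5, beside 13.8% higher and 16.9% lower. Without WT replicate 2 they were 3, 4 and 6, beside 11.2% higher and 14.8% lower. The share of all genes called in either direction was 28.0% with DESeq2, 29.0% with a replicate block, 31.3% with a gene structure trend removed, 6.25% with a minimum fold of 1.2 and 19.1% with WT replicate 1 as the only WT library. It was 30.7%, 26.0% and 23.3% without WT replicates 1, 2 and 3, and 24.2%, 22.9% and 29.0% without enhancer KO replicates 1, 2 and 3.

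**Figure D2:**
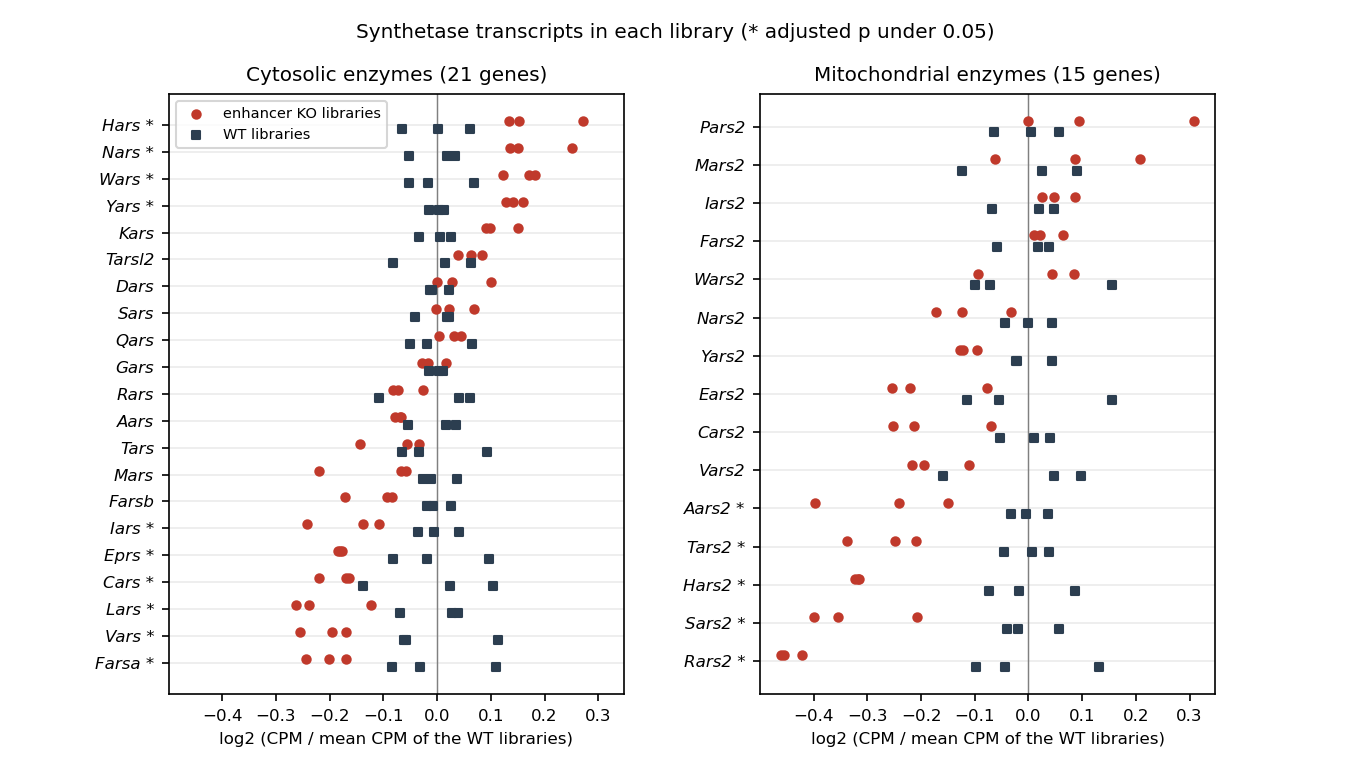
Level of each synthetase transcript in every library as log2 of its CPM over the mean CPM of the WT libraries, with enhancer KO libraries as circles drawn above WT libraries as squares, for 21 cytosolic genes (left) and 15 mitochondrial genes (right, Lars2 not drawn). Genes past the threshold carry an asterisk: Hars, Nars, Wars and Yars stand to the right in the cytosolic panel, and 5 mitochondrial genes stand to the left.

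Of the cytosolic genes called higher, Hars, Nars, Wars and Yars charge histidine, asparagine, tryptophan and tyrosine. None of them is a member of the multisynthetase complex. Hars had 61.1, 60.3 and 66.4 CPM in enhancer KO libraries and 52.6, 57.4 and 55.05 CPM in WT libraries. Every enhancer KO library lay above every WT library, with replicate 3 highest, and the log2 fold change was 0.19 ± 0.05 (SE, adjusted p = 0.0173, edgeR quasi-likelihood). Nars had 143.0, 144.4 and 154.8 CPM in enhancer KO libraries and 131.7, 133.2 and 125.4 CPM in WT libraries. The groups again did not overlap, and the log2 fold change was 0.18 ± 0.05 (SE, adjusted p = 0.00993, edgeR).

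Wars is an enzyme whose transcript is induced by interferon in human cells. It had 83.3, 86.3 and 86.8 CPM in enhancer KO libraries and 80.3, 73.8 and 75.6 CPM in WT libraries. The groups did not overlap, WT replicate 1 came closest to the enhancer KO libraries, and the log2 fold change was 0.16 ± 0.05 (SE, adjusted p = 0.0195, edgeR). Yars, mutated in a dominant form of Charcot-Marie-Tooth neuropathy in people, had 87.0, 85.0 and 85.8 CPM in enhancer KO libraries and 77.0, 78.0 and 78.5 CPM in WT libraries. It showed the least spread of the 4, with no overlap and a log2 fold change of 0.14 ± 0.04 (SE, adjusted p = 0.0160, edgeR). Nars and Yars stayed past the threshold whichever library was left out. Hars lost its call without WT replicate 1 (adjusted p = 0.0506), WT replicate 3 (0.0523) or enhancer KO replicate 3 (0.0653), and Wars without WT replicate 2 (0.0599), WT replicate 3 (0.0679) or enhancer KO replicate 2 (0.0661).

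The cytosolic genes called lower included members of the multisynthetase complex. Eprs, a single protein that charges both glutamate and proline, had 130.5, 130.1 and 130.8 CPM in enhancer KO libraries and 139.6, 158.1 and 145.9 CPM in WT libraries. The enhancer KO libraries were almost level and lay below all WT libraries, of which replicate 2 was highest, with a log2 fold change of -0.18 ± 0.05 (SE, adjusted p = 0.0137, edgeR). Iars, the isoleucyl enzyme, had 75.0, 76.5 and 69.7 CPM in enhancer KO libraries and 84.8, 80.4 and 82.2 CPM in WT libraries. The groups did not overlap and the log2 fold change was -0.16 ± 0.05 (SE, adjusted p = 0.0208, edgeR). Lars, the leucyl enzyme that also acts as a leucine sensor for mTORC1, had 36.9, 36.3 and 40.0 CPM in enhancer KO libraries and 41.5, 44.8 and 44.4 CPM in WT libraries. The groups did not overlap, and the log2 fold change was -0.20 ± 0.06 (SE, adjusted p = 0.0161, edgeR).

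Outside the complex, Farsa, Vars and Cars were lower. Farsa, the catalytic subunit of the phenylalanyl enzyme, had 21.7, 22.8 and 22.3 CPM in enhancer KO libraries and 25.1, 24.2 and 27.7 CPM in WT libraries. The groups did not overlap, and the log2 fold change was -0.21 ± 0.07 (SE, adjusted p = 0.0326, edgeR). Its partner subunit Farsb, at -0.11 ± 0.05 (adjusted p = 0.0915), was not called, although its enhancer KO libraries also lay below all WT libraries. With a gene structure trend removed, Farsb was called lower (-0.15, adjusted p = 0.0258). Vars, the valyl enzyme, had 43.9, 43.1 and 41.3 CPM in enhancer KO libraries and 53.4, 47.4 and 47.3 CPM in WT libraries. WT replicate 1 was the highest, the groups did not overlap, and the log2 fold change was -0.21 ± 0.06 (SE, adjusted p = 0.0162, edgeR). Cars, the cysteinyl enzyme, had 29.2, 30.2 and 30.3 CPM in enhancer KO libraries and 36.5, 30.9 and 34.5 CPM in WT libraries. WT replicate 2 lay just above the enhancer KO libraries. The means were 29.9 ± 0.65 CPM in enhancer KO and 34.0 ± 2.88 CPM in WT (SD, n = 3 each). Cars passed narrowly, with a log2 fold change of -0.19 ± 0.07 (SE, adjusted p = 0.0454, edgeR).

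Each of these 6 calls was lost when some single library was left out. Vars lost it only without WT replicate 1 (adjusted p = 0.0572, edgeR). Eprs lost it without WT replicate 2 (0.0782), enhancer KO replicate 1 (0.0623) or enhancer KO replicate 2 (0.0505). Lars lost it without WT replicate 2, WT replicate 3, enhancer KO replicate 1 or enhancer KO replicate 2 (adjusted p from 0.0617 to 0.0833), and Iars without WT replicate 1, WT replicate 3, enhancer KO replicate 1 or enhancer KO replicate 3 (0.0518 to 0.0721). Farsa stayed past the threshold only without WT replicate 1 or without WT replicate 2, and Cars only without WT replicate 2. No call among the 6 changed sign.

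Of the 8 cytosolic enzymes of the multisynthetase complex, 3 were lower, 0 were higher and 5 were not called, with a median log2 fold change of -0.09. At an unadjusted p under 0.05 edgeR gave 1 of them higher, Kars, and DESeq2 with adjustment gave 0. Of the 13 others, 4 were higher and 3 were lower, with a median of -0.01. Beside these and the following counts by group, 13.4% of all genes tested were higher and 17.9% lower. The uncalled complex members were Kars at 0.11 ± 0.04 (adjusted p = 0.0654), Dars at 0.04, Qars at 0.03, Rars at -0.06 and Mars at -0.11 on the log2 scale. Kars, the lysyl enzyme of both compartments, had 63.8, 66.5 and 64.1 CPM in enhancer KO libraries and 58.5, 61.0 and 60.2 CPM in WT libraries. Its groups did not overlap although it missed the threshold. The scaffold proteins of the complex, encoded by Aimp1, Aimp2 and Eef1e1, gave 0 calls of 3 in edgeR and in DESeq2 and 1, Aimp2, at an unadjusted p under 0.05. Eef1e1 averaged 21.2 ± 1.81 CPM in enhancer KO and 20.3 ± 0.22 CPM in WT, and Aimp1 18.7 ± 1.75 and 18.5 ± 2.52 CPM (SD, n = 3 each). By the structural class of the catalytic domain, 2 of 9 class I cytosolic genes were higher and 4 lower, and 2 of 11 class II genes were higher and 1 lower, with Eprs, which holds both kinds, counted in neither.

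The remaining cytosolic genes that were not called were Aars, Gars, Sars, Tars and Tarsl2. Aars, Gars and Sars had log2 fold changes of -0.07, -0.01 and 0.03. Tars was at -0.08, and Tarsl2, the threonyl enzyme encoded by a second cytosolic gene, at 0.06. Gars had 110.8, 111.7 and 114.4 CPM in enhancer KO libraries and 111.9, 113.3 and 113.9 CPM in WT libraries, and the groups overlapped. Sars had 119.85, 117.8 and 123.8 CPM in enhancer KO libraries and 119.9, 119.5 and 114.7 CPM in WT libraries, also overlapping. The sum over the 21 cytosolic genes was 1482 ± 13.7 CPM in enhancer KO and 1494 ± 13.4 CPM in WT (SD, n = 3 each), and the library values overlapped.

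In the mitochondrial set Rars2 had the largest drop among the 15 genes. Loss of its function in people causes a pontocerebellar hypoplasia. It had 13.9, 13.5 and 13.5 CPM in enhancer KO libraries and 17.4, 20.4 and 18.02 CPM in WT libraries. The enhancer KO libraries were close together and below every WT library, and the log2 fold change was -0.44 ± 0.08 (SE, adjusted p = 0.00114, edgeR). This call held with every library left out in turn and with library size alone. Its cytosolic counterpart Rars was at -0.06 ± 0.06 with overlapping groups.

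Hars2, the mitochondrial histidyl enzyme, had 14.03, 13.96 and 14.02 CPM in enhancer KO libraries and 16.6, 18.6 and 17.2 CPM in WT libraries. The groups did not overlap and the log2 fold change was -0.31 ± 0.07 (SE, adjusted p = 0.00554, edgeR). Hars, which was higher, lies head to head with Hars2, and their annotated exons overlap by 195 bases on opposite strands, which the stranded counts keep apart. Reads on the opposite strand numbered 0 to 4 per library at Hars2 and 1 to 4 at Hars.

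The other 3 mitochondrial genes called lower charge threonine, alanine and serine. Tars2 had 19.4, 18.3 and 19.97 CPM in enhancer KO libraries and 23.7, 22.4 and 23.2 CPM in WT libraries. The log2 fold change was -0.27 ± 0.06 (SE, adjusted p = 0.00835, edgeR), without overlap. Aars2, linked in people to cardiomyopathy and to leukoencephalopathy with ovarian failure, had 24.7, 20.8 and 23.1 CPM in enhancer KO libraries and 27.3, 26.8 and 28.0 CPM in WT libraries. Enhancer KO replicate 2 was lowest, and the log2 fold change was -0.26 ± 0.07 (SE, adjusted p = 0.0146, edgeR). Sars2 had 8.88, 8.61 and 9.83 CPM in enhancer KO libraries and 11.2, 11.03 and 11.8 CPM in WT libraries. None of these 3 genes had overlapping groups, and Sars2 gave a log2 fold change of -0.32 ± 0.09 (SE, adjusted p = 0.0167, edgeR).

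Rars2, Hars2 and Tars2 stayed past the threshold whichever library was left out. Aars2 lost its call without WT replicate 3 (adjusted p = 0.0600, edgeR) or enhancer KO replicate 2 (0.0717), and Sars2 without WT replicate 3 (0.0720), enhancer KO replicate 1 (0.0709) or enhancer KO replicate 2 (0.0752). Without WT replicate 2, the valyl enzyme Vars2 was also called lower (-0.24, adjusted p = 0.0237), against -0.18 and 0.0792 with it.

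Among the 10 mitochondrial genes not called, log2 fold changes ran from -0.18 for Vars2 to 0.14 for Pars2, the prolyl enzyme. Cars2, Ears2, Yars2 and Nars2 were at -0.17, -0.17, -0.12 and -0.11, and Wars2, Fars2, Iars2 and Mars2 at 0.01, 0.03, 0.05 and 0.09. Iars2 had 59.2, 56.8 and 57.7 CPM in enhancer KO libraries and 56.6, 57.7 and 53.2 CPM in WT libraries, and the groups overlapped. The low read numbers limit what can be seen here: Pars2 had 202 to 245 reads per enhancer KO library and 112 to 171 per WT library. The sum over the 15 mitochondrial genes was 247 ± 6.74 CPM in enhancer KO and 269 ± 1.42 CPM in WT (SD, n = 3 each), with every enhancer KO library below every WT library.

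Ratios of reads within a library need no scaling between libraries, so cytosolic genes were also set against mitochondrial ones in this way. The summed reads of the cytosolic genes over those of the mitochondrial genes, Lars2 left out, were 5.82, 6.17 and 6.02 in enhancer KO libraries and 5.53, 5.57 and 5.55 in WT libraries. The enhancer KO ratio was 8.20% higher, without overlap (exact two-sided permutation p = 0.1, the smallest possible with 3 against 3). With Lars2 included, the ratio was 5.22, 5.51 and 5.32 in enhancer KO libraries and 4.86, 0.369 and 4.75 in WT libraries, WT replicate 2 being far below the rest.

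For amino acids with separate enzymes, 17 cytosolic-to-mitochondrial pairs were compared. The ratio was higher in all enhancer KO libraries than in all WT libraries for 8 pairs, lower for 4 and overlapping for 5. The shares over all genes tested, 20.5% above and 24.3% below, are for levels of single genes. A ratio can separate when either of its genes moves. No share was computed for ratios of other genes, so the pair counts have no like reference. No single pair can reach an exact p below 0.1 here, and some pairs share a gene (Fars2, Tars2 or Eprs). Histidine differed most of the 17: the Hars to Hars2 ratio was 4.35, 4.32 and 4.74 in enhancer KO libraries and 3.17, 3.09 and 3.19 in WT libraries, 41.9% higher in enhancer KO. Both sides contributed, since Hars was called higher and Hars2 lower.

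The Rars to Rars2 ratio was 2.04, 2.10 and 2.18 in enhancer KO libraries and 1.60, 1.53 and 1.71 in WT libraries, 30.4% higher. Here only the mitochondrial gene was called. The Sars to Sars2 ratio was 27.3% higher, Tarsl2 to Tars2 25.5%, Nars to Nars2 22.2% and Yars to Yars2 19.5%, all without overlap. The 4 pairs with a lower ratio in enhancer KO were Eprs to Pars2 (-19.3%), Farsa to Fars2 (-15.1%), Iars to Iars2 (-13.9%) and Farsb to Fars2 (-9.83%). In each of them the mitochondrial gene was not called.

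**Figure D3:**
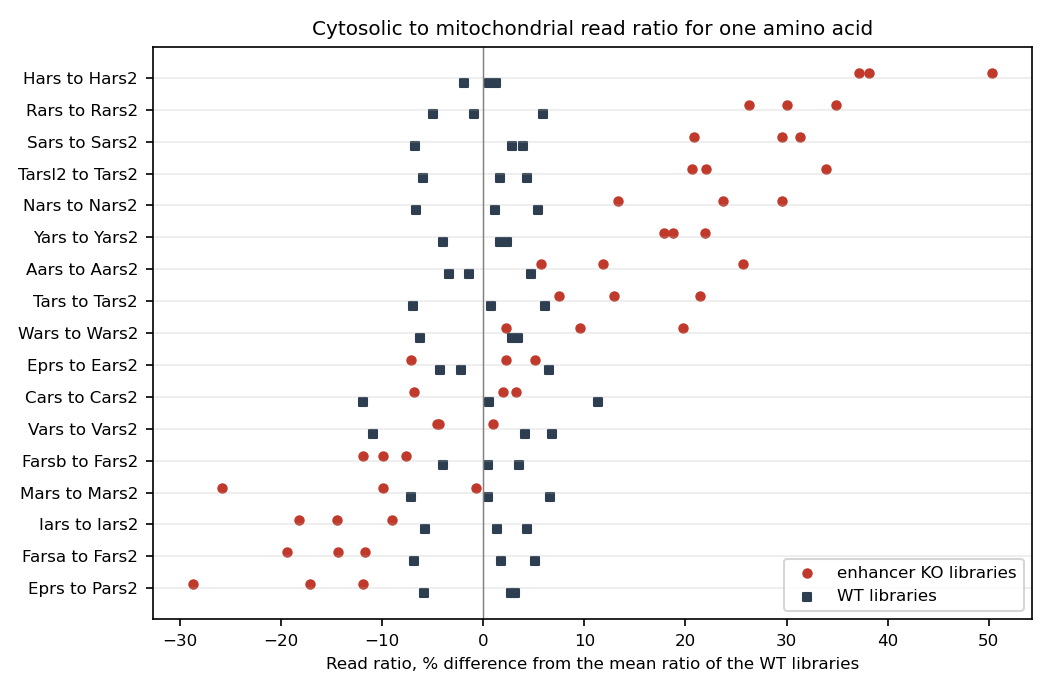
Ratio of cytosolic to mitochondrial synthetase reads for each of 17 pairs charging the same amino acid, as percent difference from the mean ratio of the WT libraries, with 3 enhancer KO libraries (circles) drawn above 3 WT libraries (squares). The Hars to Hars2 ratio is 41.9% higher in enhancer KO and the Eprs to Pars2 ratio is the lowest at -19.3%.

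Lars2 had 1101, 1097 and 1367 reads in enhancer KO libraries and 1190, 78116 and 1525 reads in WT libraries. In levels this was 29.3, 28.5 and 32.8 CPM in enhancer KO libraries and 36.7, 3814 and 45.1 CPM in WT libraries. WT replicate 2 was 84.5-fold above the next library, and there Lars2 took 68.2% of all synthetase reads, against 1.63% to 2.50% elsewhere. The log2 fold change with all libraries was -5.43 ± 2.40 (SE, adjusted p = 0.179, edgeR) and was not called. Without WT replicate 2 it was -0.43 (adjusted p = 0.0129, edgeR) and was called lower, with the enhancer KO libraries below both remaining WT libraries. Of 18 alternatives, this was the only 1 in which Lars2 passed the threshold. With WT replicate 1 as the only WT library, the log2 fold change was -0.26. With WT replicate 2 left out, Rn45s was also lower. It had 16428, 14708 and 16128 CPM in enhancer KO libraries and 29558 and 29504 CPM in WT replicates 1 and 3. Whether this Lars2 difference reflects the Lars2 transcript or ribosomal RNA reads was not tested.

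The excess of Lars2 reads in WT replicate 2 went with a few other genes. Of genes with at least 50 reads there, 4 exceeded every other library more than 4-fold in CPM, limits set after the values were seen. They were Lars2, Rn45s at 4.87-fold, and Mir6240 and Mir6236, which are annotated as microRNA genes, at 23.6-fold and 296-fold. Lars2 reads did not keep a fixed ratio to Rn45s: there were 1.78, 1.94 and 2.03 Lars2 reads per 1000 Rn45s reads in enhancer KO libraries and 1.24, 26.5 and 1.53 in WT libraries. Lars2 reads on the opposite strand numbered 19 in WT replicate 2 and 0 or 1 elsewhere. What these reads are was not tested.

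**Figure D4:**
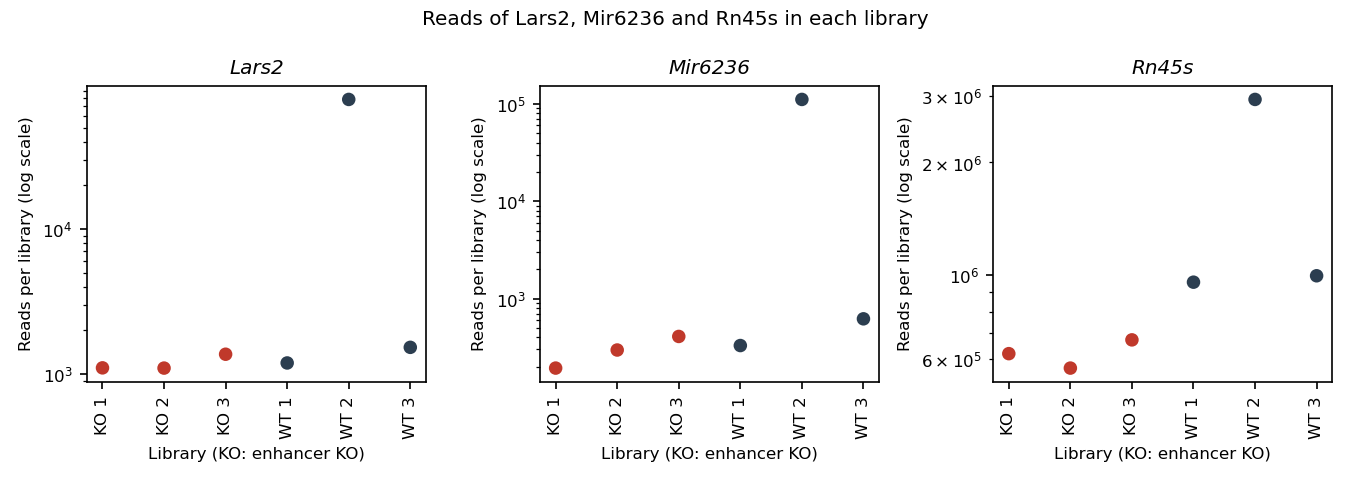
Reads of Lars2, Mir6236 and Rn45s in each of 3 enhancer KO libraries and 3 WT libraries, each on its own log axis. WT replicate 2 stands at 78116 Lars2 reads, 111111 Mir6236 reads and 2945520 Rn45s reads, above every other library in all 3 panels.

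Other genes of the tRNA pathway moved in both directions. Of 24 tRNA modification genes, 7 were lower and 0 higher (0 also at an unadjusted p under 0.05 and in DESeq2), with a median log2 fold change of -0.18. Trit1 adds the isopentenyl group next to the anticodon in cytosolic and mitochondrial tRNAs. It had 7.65 ± 0.35 CPM in enhancer KO and 11.7 ± 0.27 CPM in WT (SD, n = 3 each). The log2 fold change was -0.61 ± 0.09 (SE, adjusted p = 0.000283, edgeR). Tyw1, an enzyme of wybutosine synthesis on phenylalanine tRNA, fell by 0.38 on the log2 scale (adjusted p = 0.00203, edgeR). Qtrtd1, a subunit of the queuosine enzyme, also fell by 0.38 (0.00710), and Ikbkap, the scaffold of Elongator, fell by 0.19 (0.00745). With library size alone, or with WT replicate 1 as the only WT library, 4 of the 24 were lower, and with a minimum fold of 1.2, 1 was lower.

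In a list of 15 genes, holding tRNA charging accessories and a glycine carrier, 3 were higher and 2 were lower, with a median of 0.08. They were Dtd1, which removes D-amino acids from tRNA, at 0.27, the glycine carrier Slc25a38 at 0.25, the peptidyl-tRNA hydrolase Ptrh2 at 0.29, the mitochondrial formyltransferase Mtfmt at -0.30 and the selenocysteine kinase Pstk at -0.22. Of the 15 genes, 0 were lower with library size alone, with DESeq2, or without any 1 of WT replicates 1 and 2 and enhancer KO replicates 1 and 2. Without enhancer KO replicate 2, 1 was higher. Of 18 tRNA processing genes, 2 were higher, the RNase P subunit Rpp14 (0.28) and the tRNA exporter Xpot (0.14), and 1 was lower, the RNase P subunit Pop1 (-0.47), with a median of 0.03. Xpot lost its call when WT replicate 3, enhancer KO replicate 1 or enhancer KO replicate 2 was left out.

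The amino acid response supplied the other setting for the cytosolic genes. The Atf4 transcript had 112 ± 5.17 CPM in enhancer KO and 112 ± 6.73 CPM in WT (SD, n = 3 each), with a log2 fold change of 0.00 and an adjusted p = 0.992 (edgeR). The amount and activity of the ATF4 protein were not measured. Of 29 genes of the response that were tested, 7 were higher and 1 lower, with a median of 0.06. Psat1, an enzyme of serine synthesis, was at 0.18 (adjusted p = 0.00375, edgeR), the alanine transaminase Gpt2 at 0.19 (0.00718) and the transcription factor Atf5 at 0.23 (0.0103), while Shmt2, the mitochondrial serine hydroxymethyltransferase, was at -0.23 (0.0118). Without enhancer KO replicate 2, 4 genes of the response were higher, and 0 were lower with library size alone or when either WT replicate 3 or enhancer KO replicate 1 was left out.

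Of 9 genes that sense uncharged tRNA or act on the same phosphorylation of eIF2, 3 were higher and 2 were lower. Eif2ak4, the kinase GCN2 that binds uncharged tRNA, had 22.2 ± 0.03 CPM in enhancer KO and 31.0 ± 0.80 CPM in WT (SD, n = 3 each), a log2 fold change of -0.48 ± 0.06 (SE, adjusted p = 6.88e-05, edgeR). Gcn1l1, its activator, was at -0.22 (adjusted p = 0.00721). Impact, a GCN2 inhibitor, was at 0.28 (0.0448), Ppp1r15b, a phosphatase subunit that reverses the phosphorylation, at 0.22 (0.00193), and Eif2ak2, the kinase PKR activated by double-stranded RNA, at 0.46 (0.00263). Impact kept its call only when WT replicate 1 was the library left out, and Gcn1l1 lost its call with library size alone. These lists were chosen with earlier results of these data known, and their counts stand beside the 13.4% higher and 17.9% lower of all genes tested.

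Markers of some cell types moved between the same libraries. All 6 granule neuron markers were lower, with a summed level of 1145 to 1453 CPM in enhancer KO and 1918 to 2341 CPM in WT. Of 6 Purkinje cell markers 5 were higher, of 6 endothelial markers 5 were lower (106 to 121 CPM in enhancer KO and 142 to 156 CPM in WT), and of 6 microglial markers 4 were higher (210 to 248 CPM and 186 to 199 CPM). With 6 markers each, oligodendrocytes had 1 higher and 1 lower, and choroid plexus and retinal ganglion 0 called. Bergmann glia and astrocytes had 1 of 6 higher and 0 lower. Their summed level was 7161 to 7548 CPM in enhancer KO and 6153 to 6276 CPM in WT, without overlap. Of 8 photoreceptor markers 1 was lower. Over all genes tested, 13.4% were higher and 17.9% lower. In bulk tissue, fewer cells of a type and less RNA per cell cannot be told apart. The part of these markers, of the share of reads outside exons and of sex in the synthetase values was not tested, apart from the fit without WT replicate 1 given above.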

How the data were processed

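RNA-seq read counts per gene were used in 6 libraries, 3 enhancer KO and 3 WT. The deposited values are whole-number counts that the authors obtained with STAR after trimming with Trimmomatic, on the mm10 build, per the submitters' processing notes. The tool versions and the annotation were not given in the sources used here. Each file opens with 4 rows for reads assigned to no gene (unmapped, multimapping, outside exons, ambiguous), which entered neither library sizes nor tests. The column for the sense strand was used, since the other strand held 1.62% to 1.88% of stranded reads.

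Genes were filtered with filterByExpr and scaled by TMM. They were tested with the quasi-likelihood test of edgeR 4.0.16 (R 4.3.3, robust, two-sided, Benjamini-Hochberg over 15846 genes, threshold 0.05). The fits were first run on simulated counts with the same spread for every gene and no excess like that of WT replicate 2. The pass mark of that run was lowered after its result was seen, so it does not vouch for the fits on these libraries. CPM are relative to TMM-scaled library sizes, fold changes on the log2 scale set enhancer KO over WT, and SEs come from the fold change and the F statistic. Transcript lengths, overlaps and gene structure came from GENCODE M21 on the same build, in which 23331 symbols matched directly and another 668 by an older symbol. Aars shares 1326 exon bases with Exosc6 on the same strand and Tarsl2 120 bases with Tm2d3, so their reads may be split uncertainly, and Kars has an annotated pseudogene. Every member was named with its fold change. Levels in each library were given for called members and the most abundant ones. Of each other list, up to 4 called genes with the smallest p were named, or the 2 most abundant where none was called. Pstk, Impact, Atf4 and Aimp2 and the library levels of Kars and Cars were added after their values were seen. Members and lists were chosen with earlier results of these data known.

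Alternatives comprised scaling by RLE or by library size alone, looser and stricter filters, a replicate block, DESeq2 1.42.0, limma-voom (limma 3.58.1), the unstranded column, removal of Rn45s and Lars2, a minimum fold of 1.2, a gene structure trend (mgcv 1.9.3), WT replicate 1 as the only WT library, and leaving out each library.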

Additional observations from a re-analysis of the deposited data

How the results depend on the processing

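With a minimum fold of 1.2, calls over all genes numbered 991, with 0 cytosolic genes higher, 0 lower and 0 mitochondrial genes lower. With library size alone, 0 cytosolic genes and 1 mitochondrial gene were lower. With WT replicate 1 as the only WT library, whose spread is then assumed to be like that of enhancer KO, 3129 genes were called, 2 cytosolic genes were higher, 2 lower and 1 mitochondrial gene lower. Removal of a gene structure trend added 1 mitochondrial gene called higher, Mars2 (0.25, adjusted p = 0.0345, edgeR), and 1 cytosolic gene called lower, Farsb (-0.15, adjusted p = 0.0258, edgeR), which made 7. Leaving out each library in turn gave 2 to 4 cytosolic genes higher, 1 to 4 lower, 3 to 6 mitochondrial genes lower and a Lars2 log2 fold change of -6.00 to -0.43. No pairing by replicate number was seen: deviations of same-numbered libraries from their group means correlated at 0.0526, -0.0386 and -0.0795. Of the 3 pairs only the libraries numbered 1 correlated best with each other. With 3 libraries per group, these values cannot exclude a litter or batch shared by libraries of the same number. With the replicate block, 4594 genes were called, with 4 cytosolic genes higher, 4 lower and 5 mitochondrial genes lower, and Lars2 was at -2.02 (adjusted p = 0.641, edgeR).

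Of 648 member values under the alternatives, 554 kept direction and side of the threshold, 73 lost a call, 4 gained one and 17 changed sign, none of these past the threshold. Sign changes with WT replicate 1 as the only WT library were Aars 0.0054, Gars 0.028, Rars 0.071, Tars 0.011 and Wars2 -0.12. With library size alone Gars was 0.054 and Rars 0.0053, without a filter Gars was 0.0013, and in the unstranded column Gars was 0.010. With the trend removed Fars2 was -0.029 and Wars2 -0.0088. With each library left out in turn, Gars ran from -0.021 to 0.014, with 2 values above 0, and Wars2 from -0.029 to 0.097, with 4 values below 0. Interferon response genes called higher numbered 5 with a minimum fold of 1.2, 6 without enhancer KO replicate 2 and 2 with WT replicate 1 as the only WT library. The cause of these changes was not tested. Depth of 112 to 7611 reads per gene and library, outside Lars2, and 3 libraries per group limit the changes that could be called.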

Other observations

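Genes of the interferon response were higher in enhancer KO beside Wars. Of 18 in the list, 10 were higher and 1 was lower, with a median log2 fold change of 0.49, against 13.4% higher and 17.9% lower over all genes tested, and 6 were higher without enhancer KO replicate 2. Oasl2 averaged 7.03 ± 1.56 CPM in enhancer KO and 3.47 ± 0.23 CPM in WT (SD, n = 3 each), a log2 fold change of 1.02 ± 0.17 (SE, adjusted p = 0.000856, edgeR). Ifit3 and Irf7 were at 0.98 and 0.86 (adjusted p = 0.00302 and 0.00373, edgeR). Stat2, which carries the interferon signal to the nucleus, was lower at -0.79 (adjusted p = 3.47e-06, edgeR). Of 3 abundant noncoding RNA genes tested, Rn45s among them, edgeR called 0, at an unadjusted p under 0.05 as well, while DESeq2 called 1 lower and limma-voom 1 higher and 1 lower. Without WT replicate 2, edgeR also called 1 higher and 1 lower.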
